A study of Danio rerio with 6 samples.

Results

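Leukocyte genes were followed in the sorted fractions of the zebrafish heart: 40 genes of the 31465 quantified. These genes were chosen by gene symbol, with earlier results of these data known. They comprised 6 neutrophil genes, 4 genes of the phagocyte oxidase, 19 macrophage genes and 11 genes shared by most leukocytes, here called pan-leukocyte genes. SAR libraries were made from GFP+ cells, which the paper takes as the sinoatrial ring at the venous pole of the heart. ROH libraries were made from GFP- cells, taken as the rest of the heart. The paper's discussion proposes that the GFP+ region is likely a mixed population, in which pacemaker cells lie among other cells. There were 3 libraries of each fraction. Both fractions came from hearts of the transgenic line sqet33mi59BEt collected at 72 hpf, with no treatment or mutation named in the labels, so that the groups differed by design only in the GFP gate. GFP in this line comes from an enhancer trap, so that SAR is defined by reporter fluorescence and ROH by its absence. This places GFP- muscle, GFP- endocardium and GFP- blood cells in a single fraction. Each library pooled the hearts of many embryos. The gate was set on GFP, so circulating GFP- blood cells inside the hearts could enter ROH.

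Neutrophils and macrophages are the phagocytes of the innate immune system, and in zebrafish larvae at this stage they are the main leukocytes, since adaptive immunity matures later. Neutrophils carry granules with lysozyme, peroxidase and proteases and respond to colony stimulating factor 3. Macrophages engulf cells and debris, depend on receptors of the colony stimulating factor 1 family, and settle in most organs, the heart included. Both cell types share a set of actin regulators, signalling proteins and transcription factors, and both can assemble an NADPH oxidase that makes superoxide.

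The estimated counts of SAR libraries summed to between 7495108 and 77243214 and those of ROH libraries to between 999437 and 23495798. The smallest library, ROH replicate 1, had a floor of 3 counts at 3.0 CPM, beside 0.128 to 0.157 CPM in the other ROH libraries, while the floor was 0.0388 to 0.40 CPM in SAR libraries. CPM is the count scaled to the library total, and the levels below also include the TMM factors. At least 3 counts were found for 16, 37 and 39 of the 40 genes in SAR replicates 1, 2 and 3, and for 24, 40 and 38 of them in ROH replicates 1, 2 and 3. Floors cover counting error only. Cardiomyocyte markers were present in both fractions, with a summed level of 928 to 3599 TPM (a level per transcript length, scaled to the same total in each library) in SAR and 711 to 1211 TPM in ROH. SAR replicate 3 was the lowest SAR library for each of the 9 markers. The 11 erythrocyte markers summed to 23.7 to 31.4 TPM in SAR and 30452 to 50564 TPM in ROH, and all 11 passed the test as lower in SAR. The 6 epidermal markers summed to 3995 to 6224 TPM in SAR and 709 to 833 TPM in ROH, and 5 passed as higher in SAR. The part of these other cells in the results below was not tested. In sorted bulk samples, fewer cells of a type and less RNA per cell cannot be told apart.

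Most leukocyte genes that passed the test were lower in SAR cells. Of the 40 genes, 35 passed the filter on low counts, and 13 of these were lower and 1 was higher in SAR at an adjusted p below 0.05 and a log2 fold change of at least 1.5 in size. Adjusted p-values, here and below, are those of the quasi-likelihood test in edgeR, corrected by the Benjamini-Hochberg procedure over all 21969 tested genes. Among all tested genes 3.7% were lower and 2.84% were higher by the same rule. The 35 genes had a median log2 fold change of -2.35, against 0.03 over all tested genes. Genes with few counts in SAR entered the test through ROH alone, so the count and the median describe the tested genes and not the whole set of 40. The same holds for the counts and medians by role and by list below. Every SAR library lay below every ROH library for 21 of the 35 genes and above for 2 of them, beside 15.6% and 14.3% of all tested genes. The other 12 genes overlapped between the fractions. With the replicate number as a block, 17 of the 35 were lower and 1 higher, beside 1040 and 719 of all 21969 tested genes.

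**Figure D1:**
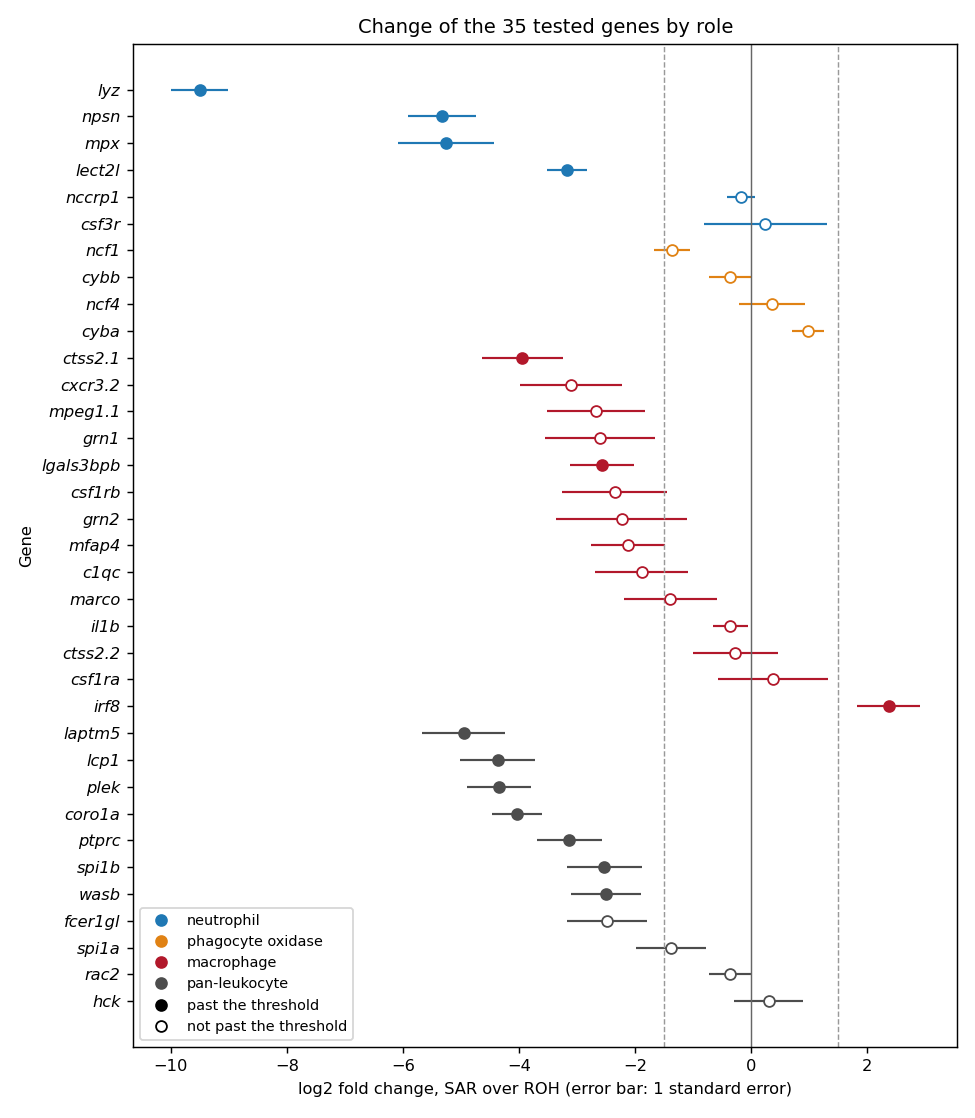
Log2 fold change, SAR over ROH, of the 35 tested genes on the horizontal axis, grouped by role and ordered within each role, with 1 standard error as the bar and dashed lines at -1.5 and 1.5. Filled points passed the threshold: 13 genes lie to the left, from lyz at -9.5 to wasb at -2.51, and irf8 alone lies to the right at 2.37.

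The neutrophil genes lyz, npsn and mpx had the largest log2 fold changes in size among the 35 tested genes. Of the 6 neutrophil genes, 4 were lower in SAR, and the group had a median log2 fold change of -4.22. lyz (ENSDARG00000057789), the gene of lysozyme, which breaks bacterial cell walls, was at 0, 0.0584 and 0.144 CPM in SAR replicates 1, 2 and 3, against 61.0, 62.6 and 111 CPM in ROH replicates 1, 2 and 3. These SAR levels correspond to 0, 2 and 11 estimated counts, so that 2 of the 3 SAR libraries were under the floor of 3 counts. lyz fell by 9.5 on the log2 scale (SE 0.498, adjusted p = 1.34e-04, n = 3 each). By mean TPM it was the gene of rank 26092 in SAR and of rank 636 in ROH.

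mpx (ENSDARG00000019521), the myeloid peroxidase of neutrophil granules, was at 0, 0.964 and 0.17 CPM in SAR libraries and at 11.3, 14.0 and 24.5 CPM in ROH libraries. It fell by 5.26 on the log2 scale (SE 0.831, adjusted p = 0.00733). The highest SAR library, replicate 2, remained below the lowest ROH library. npsn (ENSDARG00000010423), which encodes nephrosin, an astacin-type metalloprotease of fish granulocytes, was at 0, 0.350 and 0.418 CPM in SAR and at 13.1, 10.4 and 16.2 CPM in ROH. It fell by 5.32 on the log2 scale (SE 0.590, adjusted p = 0.00185), with no overlap of the libraries.

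lect2l (ENSDARG00000033227), a relative of a chemotactic factor for neutrophils, was at 1.17, 2.51 and 1.65 CPM in SAR, against 16.9, 16.6 and 16.4 CPM in ROH. All 3 ROH libraries were close to each other and all 3 SAR libraries lay far below them. The gene fell by 3.17 on the log2 scale (SE 0.351, adjusted p = 0.00183). Each of the 4 neutrophil genes passed the threshold in all 6 fits that left out a single library.

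The remaining neutrophil genes did not pass. nccrp1 (ENSDARG00000035326), whose protein was described on cytotoxic cells of fish, was at 60.6, 59.3 and 72.7 CPM in SAR and at 53.5, 62.5 and 98.3 CPM in ROH. The libraries overlapped and the log2 fold change was -0.17 (SE 0.240, adjusted p = 0.754). csf3r (ENSDARG00000045959), the receptor of colony stimulating factor 3, was at 0, 1.31 and 0.235 CPM in SAR and at 0, 0.484 and 0.579 CPM in ROH, with a log2 fold change of 0.24 (SE 1.06, adjusted p = 0.939).

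The share of each gene in the summed level of the neutrophil group was also computed. lyz gave 0%, 0.327% and 0.792% of the summed TPM of the 6 genes in SAR replicates 1, 2 and 3, against 63.9%, 65.3% and 70.2% in ROH replicates 1, 2 and 3. nccrp1 gave 94.3%, 86.9% and 91.4% in SAR, against 14.6%, 16.3% and 16.3% in ROH. The 4 genes without lyz and nccrp1 summed to 2.90, 8.12 and 5.62 TPM in SAR and to 69.2, 64.0 and 67.7 TPM in ROH.

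**Figure D2:**
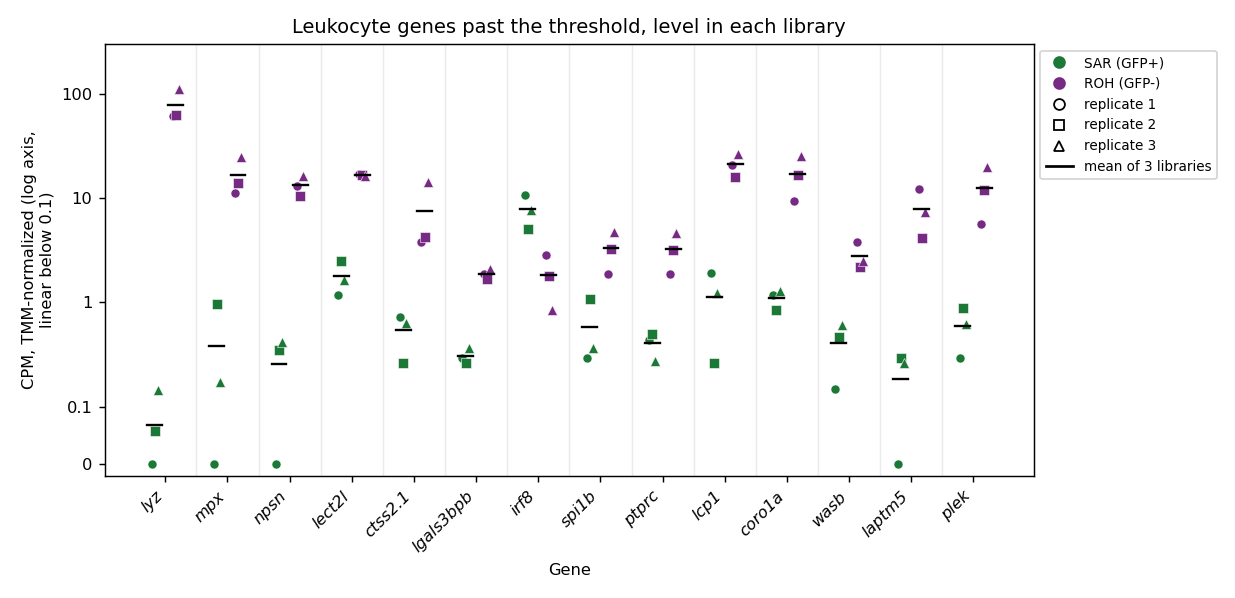
TMM-normalized CPM of the 14 genes past the threshold in each library (vertical log axis, linear below 0.1), with SAR on the left and ROH on the right of each gene, a point shape for each replicate and a bar at the mean of 3 libraries. No gene overlaps between the fractions, and only irf8 has its SAR libraries, at 4.99 to 10.8 CPM, above its ROH libraries, at 0.842 to 2.81 CPM.

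Of the genes of the phagocyte oxidase, 0 of 4 passed the threshold, which is close to the shares of all tested genes (3.7% lower and 2.84% higher). Their median log2 fold change was -0.0010. DESeq2 also called 0 of them, though ncf1 and cyba passed its threshold in p and not in fold (DESeq2 adjusted p = 0.00496 and 0.0261). At an unadjusted p under 0.05 in edgeR there were 2, again ncf1 and cyba. ncf1 (ENSDARG00000033735), the cytosolic organiser subunit, was at 3.36, 4.35 and 5.29 CPM in SAR, against 10.3, 10.7 and 12.5 CPM in ROH. All SAR libraries lay below all ROH libraries, and the log2 fold change was -1.36 (SE 0.308, adjusted p = 0.0288), past the threshold in p and not in fold. cyba (ENSDARG00000018283), the membrane partner of the catalytic subunit that also serves other NADPH oxidases, was at 26.7, 30.2 and 23.4 CPM in SAR and at 10.3, 10.9 and 18.2 CPM in ROH. Here all SAR libraries lay above all ROH libraries, with a log2 fold change of 0.98 (SE 0.270, adjusted p = 0.0567).

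cybb (ENSDARG00000056615), the catalytic subunit of the phagocyte enzyme, was at 4.67, 10.6 and 6.76 CPM in SAR and at 8.44, 8.96 and 10.8 CPM in ROH (log2 fold change -0.36, SE 0.359, adjusted p = 0.635). ncf4 (ENSDARG00000040812), a further cytosolic subunit, was at 2.19, 10.9 and 4.92 CPM in SAR and at 4.69, 5.89 and 3.68 CPM in ROH. Its log2 fold change was 0.36 (SE 0.571, adjusted p = 0.792), and the SAR libraries spread on both sides of the ROH libraries. Without SAR replicate 2 the log2 fold change of ncf4 was -0.37. The summed level of the 4 genes was 45.3, 65.3 and 50.7 TPM in SAR and 33.5, 34 and 42.7 TPM in ROH. Most of it was cyba, and the other 3 genes summed to 5.35, 16.3 and 10.2 TPM in SAR and to 13.6, 15.6 and 15.03 TPM in ROH, with overlap.

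Partner genes of the enzyme were measured in a second list of 6, of which 5 were tested, 0 lower and 1 higher in SAR. DESeq2 gave the same counts, and 0 were lower at an unadjusted p under 0.05. The higher gene was nox1, a catalytic subunit of another NADPH oxidase that also pairs with the cyba product, at 5.98, 3.04 and 3.53 CPM in SAR against 0, 0.726 and 0.368 CPM in ROH (log2 fold change 3.0, SE 0.621, adjusted p = 0.0205). The chaperone gene cybc1 and the proton channel gene hvcn1 had log2 fold changes of -0.0091 and -0.14 (adjusted p = 0.988 and 0.743).

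Of the 19 macrophage genes 14 were tested, of which 2 were lower and 1 was higher in SAR. With the replicate number as a block, since pools of hearts were sorted into both fractions, 5 were lower and 1 was higher. The tested macrophage genes had a median log2 fold change of -2.18, with 12 negative and 2 positive values. Some of them had few counts in SAR and entered the test through ROH alone, so these values describe only the tested genes. ctss2.1 (ENSDARG00000074656), one of a pair of neighbouring cathepsin S genes whose products are lysosomal proteases, was at 0.730, 0.263 and 0.627 CPM in SAR and at 3.75, 4.24 and 14.4 CPM in ROH. It fell by 3.94 on the log2 scale (SE 0.697, adjusted p = 0.0113), and ROH replicate 3 held the highest value. Without that library the log2 fold change was -2.90 and the adjusted p was 0.0549. Its neighbour ctss2.2 (ENSDARG00000013771) was at 0.146, 0.496 and 0.549 CPM in SAR and at 0, 0.444 and 0.737 CPM in ROH (log2 fold change -0.27, SE 0.730, adjusted p = 0.890). Reads that fit both copies could be split between them by the quantification.

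lgals3bpb (ENSDARG00000040528), whose product is a secreted galectin-binding glycoprotein, was at 0.292, 0.263 and 0.366 CPM in SAR, against 1.88, 1.65 and 2.1 CPM in ROH. The fractions did not overlap, and the gene fell by 2.57 on the log2 scale (SE 0.545, adjusted p = 0.0223). The ROH replicate 1 value rested on 2 counts. Leaving out SAR replicate 1 kept the call (adjusted p = 0.0467). Leaving out SAR replicate 2 or 3 gave an adjusted p of 0.0526 and 0.0757, and leaving out ROH replicate 1, 2 or 3 gave 0.0561, 0.12 and 0.139.

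irf8 (ENSDARG00000056407) went the other way. It encodes a transcription factor that zebrafish macrophages need to form, and it was at 10.8, 4.99 and 7.67 CPM in SAR, against 2.81, 1.78 and 0.842 CPM in ROH. Each SAR library was above each ROH library, and irf8 rose by 2.37 on the log2 scale (SE 0.539, adjusted p = 0.0290). The call held without ROH replicate 1 and without SAR replicate 2. It was lost without ROH replicate 2 or 3 (adjusted p = 0.10 and 0.0926) and without SAR replicate 1 or 3 (adjusted p = 0.0539 and 0.0723), with log2 fold changes of 1.99 to 2.63 over all 6 fits.

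Markers that are widely used for macrophages were low in both fractions. mpeg1.1 (ENSDARG00000055290), which encodes a pore-forming protein of the perforin family, was at 0, 0.438 and 0.993 CPM in SAR and at 0.938, 3.55 and 5.16 CPM in ROH. The lowest ROH value was a single count in replicate 1, and the log2 fold change was -2.67 (SE 0.841, adjusted p = 0.0868). With the replicate block mpeg1.1 passed, at a log2 fold change of -2.79 (adjusted p = 0.0222). marco (ENSDARG00000059294), a scavenger receptor gene, was at 0, 0.321 and 0.536 CPM in SAR and at 0.938, 0.726 and 1.11 CPM in ROH, with a log2 fold change of -1.39 (SE 0.801, adjusted p = 0.357). Neither passed the threshold in the edgeR fit without the block. DESeq2, also without a block, called mpeg1.1 lower (log2 fold change -2.68, DESeq2 adjusted p = 0.0239). marco passed neither with DESeq2 (adjusted p = 0.536) nor with the block in edgeR (adjusted p = 0.356).

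mfap4 (ENSDARG00000090783), whose promoter is used to label zebrafish macrophages, was at 1.02, 1.43 and 4.38 CPM in SAR and at 3.75, 10.2 and 15.2 CPM in ROH. SAR replicate 3 was above ROH replicate 1, while within each same-numbered pair the SAR library was the lower one. The log2 fold change was -2.12 (SE 0.634, adjusted p = 0.0748). With the replicate block mfap4 passed, at -2.22 (adjusted p = 0.00992). Without SAR replicate 3 the log2 fold change was -3.04 and the adjusted p was 0.0303. A further 14 genes carry an mfap4 name, so that the reads of close copies could be split. Of these, 10 were tested and 2 were lower in SAR. They were ENSDARG00000088745, with a log2 fold change of -4.57 (SE 0.389, adjusted p = 6.67e-04), and ENSDARG00000093877, with a log2 fold change of -3.44 (SE 0.699, adjusted p = 0.0188).

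The receptors of colony stimulating factor 1 and interleukin 34 were near the floor in several libraries. csf1ra (ENSDARG00000102986), which xanthophores of the skin also express, was at 0, 0.964 and 1.44 CPM in SAR and at 0, 0.847 and 0.684 CPM in ROH (log2 fold change 0.37, SE 0.946, adjusted p = 0.884). Of 3 xanthophore markers, gch2 and aox5 were higher in SAR and xdh was lower, and their summed level was 41.0 to 95.2 TPM in SAR and 4.11 to 7.53 TPM in ROH, whose part in the csf1ra value was not tested. csf1rb (ENSDARG00000053624) was at 0, 0.555 and 0.118 CPM in SAR and at 0.938, 1.01 and 1.84 CPM in ROH, with a log2 fold change of -2.35 (SE 0.900, adjusted p = 0.153). Leaving out SAR replicate 2 gave csf1rb a log2 fold change of -3.76 and an adjusted p of 0.0409.

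Among the ligands of these receptors and of csf3r, 4 of 5 were tested and 0 passed the threshold in either direction, while 3 were lower and 1 was higher at an unadjusted p under 0.05 and DESeq2 called 2 of them lower, csf1b and csf3b. csf1a was at 4.82, 4.38 and 3.57 CPM in SAR and at 9.38, 10.4 and 8.63 CPM in ROH, past the threshold in p and not in fold (log2 fold change -1.17, SE 0.306, adjusted p = 0.0483). csf1b, csf3b and il34 had log2 fold changes of -2.40, -2.01 and 1.08 (adjusted p = 0.0714, 0.0811 and 0.198). il34 was at 29.3, 12.2 and 10.6 CPM in SAR and at 12.2, 6.29 and 7.74 CPM in ROH.

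The granulin genes grn1 (ENSDARG00000089362) and grn2 (ENSDARG00000088641) are neighbours and encode secreted growth factor-like peptides. grn1 was at 0, 4.64 and 0.824 CPM in SAR and at 10.3, 15.3 and 9.68 CPM in ROH. The fractions did not overlap, but the SAR libraries differed widely from each other, and the log2 fold change of -2.60 did not pass (SE 0.948, adjusted p = 0.135). grn1 passed with the replicate block, at -3.15 (adjusted p = 0.0270). Without SAR replicate 2 and without the block it was -4.33, with an adjusted p of 0.00999. grn2 reached at most 0.292 CPM in SAR and 0.938 CPM in ROH, and its log2 fold change was -2.23 (SE 1.13, adjusted p = 0.288). For grn2 leaving out the same library gave -5.09 and an adjusted p of 0.0349.

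The complement genes c1qa, c1qb and c1qc, which encode the recognition subunits of the classical pathway and lie beside each other, were at most at 0.340 CPM in SAR and 0.938 CPM in ROH. Only c1qc (ENSDARG00000095627) was tested, with a log2 fold change of -1.89 (SE 0.801, adjusted p = 0.198). c1qa (ENSDARG00000044613), c1qb (ENSDARG00000044612), the invariant chain genes cd74a and cd74b of antigen presentation, and the cytokine gene tnfa had too few counts for the test. cd74a and cd74b reached 0.438 CPM in SAR and 0.737 CPM in ROH. tnfa was at 0, 0 and 0.0784 CPM in SAR and at 0.938, 0.202 and 0.210 CPM in ROH, where the highest of these values was 1 count.

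cxcr3.2 (ENSDARG00000041041), a chemokine receptor gene of zebrafish macrophages, was at 0, 0.350 and 0.314 CPM in SAR and at 5.63, 1.25 and 1.95 CPM in ROH. All SAR libraries were lower, and the log2 fold change was -3.11 (SE 0.876, adjusted p = 0.0616). DESeq2 called cxcr3.2 lower (log2 fold change -3.20, DESeq2 adjusted p = 0.00419). il1b (ENSDARG00000098700), an inflammatory cytokine that several cell types can make, was at 7.44, 11.9 and 8.37 CPM in SAR and at 15, 11.097 and 10.7 CPM in ROH. Its libraries overlapped, with a log2 fold change of -0.36 (SE 0.297, adjusted p = 0.555). Of 8 tested cytokine, chemokine and inflammasome genes of a related list, 4 were higher in SAR and 0 were lower, as with DESeq2, and 0 were lower at an unadjusted p under 0.05. They were the neutrophil attractants cxcl8a and cxcl18b (log2 fold changes 3.36 and 2.59, adjusted p = 0.00134 and 0.00975) and the inflammasome genes caspb and pycard (5.18 and 1.52, adjusted p = 0.00288 and 0.0140). Epidermal markers also differed in this direction between the fractions. Of 6 tested, 5 were higher in SAR, and they summed to 3995 to 6224 TPM in SAR and 709 to 833 TPM in ROH, a part that was not tested.

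The pan-leukocyte genes held 7 of 11 genes lower in SAR and 0 higher (0 also with DESeq2 and at an unadjusted p under 0.05), with a median log2 fold change of -2.53. With the replicate block 8 were lower and 0 higher. lcp1 (ENSDARG00000023188), the gene of the actin-bundling protein L-plastin, was at 1.90, 0.263 and 1.23 CPM in SAR and at 20.6, 15.8 and 26.6 CPM in ROH. It fell by 4.37 on the log2 scale (SE 0.640, adjusted p = 0.00553). coro1a (ENSDARG00000054610), which encodes the actin regulator coronin, was at 1.17, 0.847 and 1.27 CPM in SAR and at 9.38, 16.7 and 25.2 CPM in ROH. It fell by 4.03 (SE 0.430, adjusted p = 0.00160), and for both genes the lowest ROH library was far above the highest SAR library.

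laptm5 (ENSDARG00000101785), a lysosomal membrane protein gene of blood cells, was at 0, 0.292 and 0.261 CPM in SAR and at 12.2, 4.12 and 7.37 CPM in ROH. The gene fell by 4.95 on the log2 scale (SE 0.720, adjusted p = 0.00541). plek (ENSDARG00000104325), whose product pleckstrin is a substrate of protein kinase C in leukocytes and platelets, was at 0.292, 0.876 and 0.614 CPM in SAR and at 5.63, 12 and 19.9 CPM in ROH. It fell by 4.35 (SE 0.553, adjusted p = 0.00332). With gene length offsets the log2 fold change of plek was -2.97 and the adjusted p was 0.150. Of 7 tested thrombocyte markers, the fish cells that correspond to platelets, 4 were lower in SAR, and they summed to 7.04 to 18.6 TPM in SAR and 58.3 to 92.8 TPM in ROH, a part that was not tested.

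ptprc (ENSDARG00000071437), the gene of the leukocyte surface phosphatase CD45, was at 0.438, 0.496 and 0.275 CPM in SAR and at 1.88, 3.19 and 4.58 CPM in ROH. Its ROH replicate 1 value rested on 2 counts, under the floor of 3. ptprc fell by 3.13 on the log2 scale (SE 0.558, adjusted p = 0.0116). Without ROH replicate 2 or 3 its adjusted p was 0.0555 and 0.0696. wasb (ENSDARG00000026350), a homologue of the Wiskott-Aldrich actin nucleation factor, was at 0.146, 0.467 and 0.601 CPM in SAR and at 3.75, 2.18 and 2.47 CPM in ROH. The fractions did not overlap and wasb fell by 2.51 (SE 0.603, adjusted p = 0.0353), but the call was lost in each of the 6 fits that left out a library, with an adjusted p of 0.0537 to 0.126.

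spi1b (ENSDARG00000000767) and spi1a (ENSDARG00000067797) encode the zebrafish copies of PU.1, a transcription factor of myeloid development. spi1b was at 0.292, 1.08 and 0.366 CPM in SAR and at 1.88, 3.27 and 4.74 CPM in ROH. Its values in SAR replicate 1 and in ROH replicate 1 each rested on 2 counts. spi1b fell by 2.53 on the log2 scale (SE 0.641, adjusted p = 0.0432), and without SAR replicate 2 the adjusted p was 0.0144. Leaving out SAR replicate 1 or 3 gave 0.0720 and 0.127, and leaving out ROH replicate 1, 2 or 3 gave 0.0628, 0.137 and 0.179. spi1a was at 0.730, 4.29 and 1.99 CPM in SAR and at 3.75, 6.09 and 8.16 CPM in ROH, with an overlap of the libraries and a log2 fold change of -1.38 (SE 0.599, adjusted p = 0.210).

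The last 3 pan-leukocyte genes did not pass in the edgeR fit without the replicate block, and of these fcer1gl alone passed with it. fcer1gl (ENSDARG00000104077), related to the signalling chain of Fc receptors, was at 0.146, 0.263 and 0.902 CPM in SAR and at 2.81, 2.34 and 3.32 CPM in ROH. Its libraries did not overlap, and the log2 fold change was -2.49 (SE 0.688, adjusted p = 0.0574). fcer1gl passed with the replicate block, at -2.67 (adjusted p = 0.0301). Without SAR replicate 3 it was -3.60, with an adjusted p of 0.0305. DESeq2 on all libraries, without a block, also called fcer1gl lower (log2 fold change -2.50, DESeq2 adjusted p = 0.0198). rac2 (ENSDARG00000038010), a GTPase of the phagocyte oxidase and of cell migration, was at 12.8, 36.0 and 34.2 CPM in SAR and at 32.8, 33.7 and 40.9 CPM in ROH (log2 fold change -0.37, SE 0.358, adjusted p = 0.626). hck (ENSDARG00000058647), a Src-family kinase gene, was at 12.3, 73.5 and 22.3 CPM in SAR and at 33.8, 36.2 and 19.7 CPM in ROH, with a log2 fold change of 0.30 (SE 0.596, adjusted p = 0.839). SAR replicate 2 was the highest of the 6 libraries for hck, and without it the log2 fold change was -0.74.

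**Figure D3:**
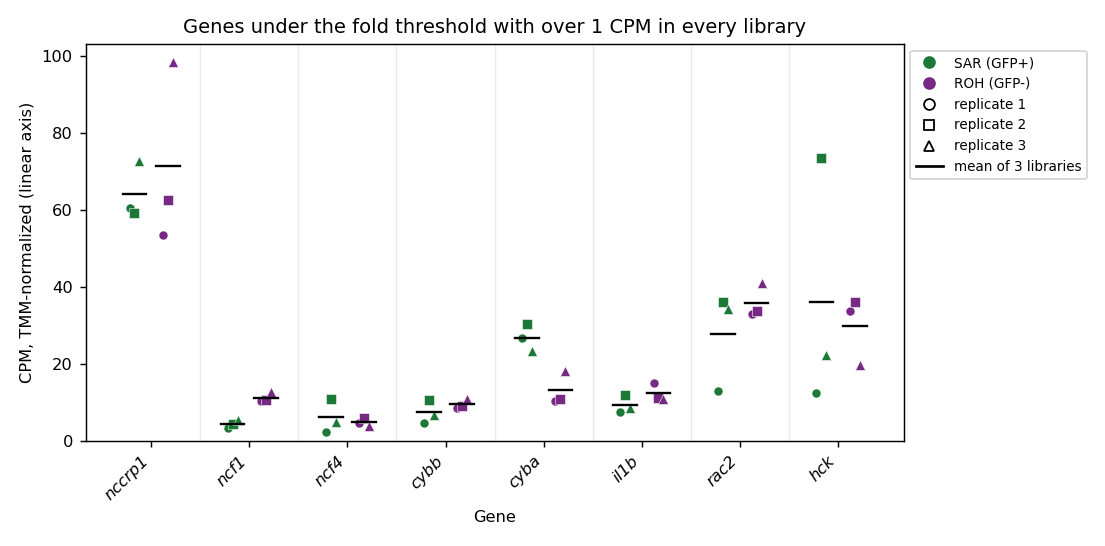
TMM-normalized CPM (linear axis) of the 8 genes with a log2 fold change under 1.5 in size and over 1 CPM in every library, with SAR on the left and ROH on the right of each gene, a point shape for each replicate and a bar at the mean of 3 libraries. The fractions overlap for 6 genes, ncf1 is lower in all SAR libraries and cyba is higher in all of them.

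Among the 21 tested genes that did not pass, 8 had a log2 fold change of -1.5 or below and 9 lay between -0.5 and 0.5. The 9 genes near 0 included nccrp1, rac2, hck, il1b, cybb and ncf4, which had over 1 CPM in every library, beside csf3r, csf1ra and ctss2.2, which were at 0 in at least 1 library. Of the 13 genes at 1 count or less in ROH replicate 1, 6 had no overlap between the fractions with the lower values in SAR, which rests on single counts in that library. In SAR replicate 1, 18 of the 40 genes were at 0 counts.

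On the TPM scale, which allows levels of different genes to be compared, lyz was the most abundant of the 40 genes in ROH at 261 TPM, followed by nccrp1 at 61.9, lect2l at 43.8 and grn1 at 35.1 TPM (means of 3 libraries). In SAR the order was nccrp1 at 56.4, cyba at 43.1, rac2 at 20.9 and hck at 7.23 TPM. Summed over the genes of a role, the neutrophil genes reached 50.6, 63.7 and 72.3 TPM in SAR and 322, 348 and 502 TPM in ROH. The macrophage genes reached 15.3, 27.6 and 28.5 TPM in SAR and 78, 91.5 and 90.2 TPM in ROH. For the pan-leukocyte genes the sums were 13.9, 50.0 and 46.1 TPM in SAR and 104, 117 and 134 TPM in ROH. The sum of the oxidase genes, given above, was higher in every SAR library with cyba and overlapped without it.

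**Figure D4:**
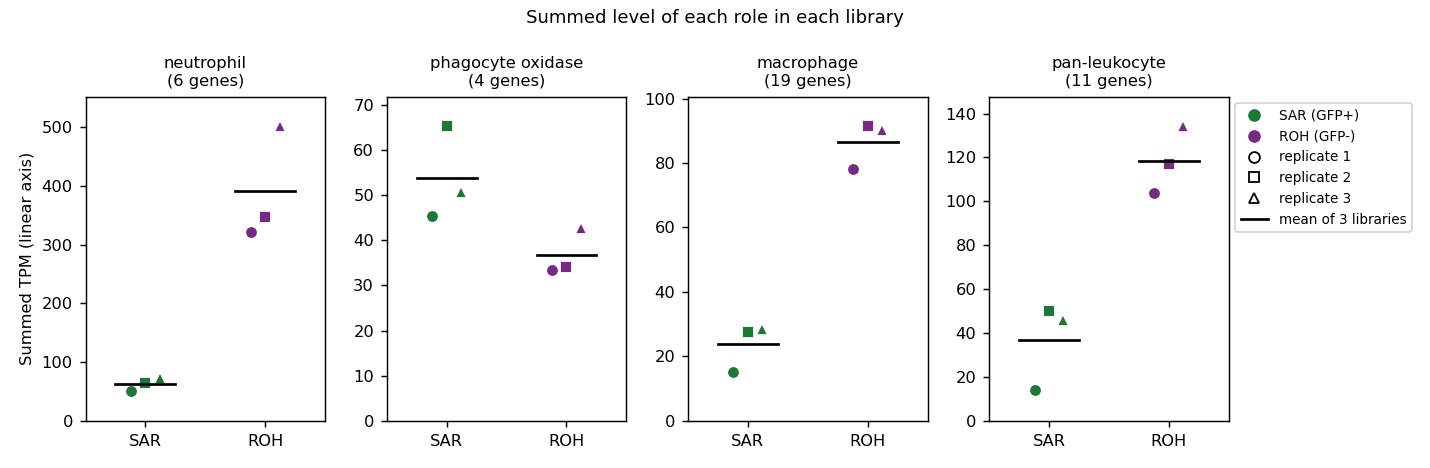
Summed TPM of the genes of each role (vertical linear axis from 0, with its own scale in each panel) in the SAR libraries on the left and the ROH libraries on the right, with a point shape for each replicate and a bar at the mean of 3 libraries. The sums of the neutrophil, macrophage and pan-leukocyte genes are lower in every SAR library, and that of the oxidase genes, of which cyba is the largest part, is higher, at 45.3 to 65.3 TPM against 33.5 to 42.7 TPM.

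Genes of the same pathways from 9 further lists numbered 100, of which 82 were matched to a single gene ID and 72 of these were tested, with 9 lower and 8 higher in SAR. Of 11 tested leukocyte signalling genes 2 were lower, fermt3b, which encodes an integrin activator, at a log2 fold change of -4.69, and the phosphatase gene ptpn6 at -2.64 (adjusted p = 0.00154 and 0.0155). With the replicate block 4 were lower. Of 12 tested macrophage and microglia genes 4 were lower and 0 higher (0 also with DESeq2 and at an unadjusted p under 0.05), namely the chemokine gene ccl34a.4 at -4.48, the phosphatidylserine receptor gene timd4 at -3.03, the amino acid transporter gene slc7a7 at -1.69 and the scavenger receptor gene stab1 at -1.5 (adjusted p = 0.0192, 0.0153, 0.0246 and 0.0481). stab1 was at -1.41 with the replicate block, under the fold threshold. The list had 4 genes lower with the block as well, so that a gene not named here passed with it. stab1 is also expressed by endothelium, and 6 of 9 tested endothelial markers were lower in SAR, with sums of 335 to 455 TPM in SAR and 578 to 1303 TPM in ROH, whose part was not tested.

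Of 9 further neutrophil genes 3 were lower, il6r at -3.83, hp at -3.78 and the matrix protease gene mmp13a at -3.13 (adjusted p = 0.0103, 0.00450 and 0.0491). The symbol hp, that of haptoglobin, came from the paper's gene tables, and the gene name table calls this gene msmbl. cfl1l, a cofilin-like gene, was higher at 2.1 (adjusted p = 0.00936). Among 9 tested transcription factors of myeloid cells 0 were lower, also with DESeq2, and 2 were lower and 6 higher at an unadjusted p under 0.05. The genes past the threshold were cebpb, higher at 1.94, and cebpd, higher at 2.41 (adjusted p = 0.00914 and 0.00334), both also active in other tissues. The 9 tested pattern recognition genes and the 5 tested antigen presentation genes had 0 calls in either direction, also with DESeq2. These short lists stand beside 3.7% lower and 2.84% higher among all tested genes. At an unadjusted p under 0.05 the first list had 1 lower and 1 higher gene and the second had 0 lower and 1 higher.

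Markers of other blood cells were measured beside the 40 genes. In addition to the erythrocyte and thrombocyte markers, 5 of 7 tested blood progenitor markers were lower in SAR, with sums of 12 to 21.3 TPM in SAR and 123 to 174 TPM in ROH. Of 8 tested lymphocyte markers 1 was lower, ikzf1, and the list summed to 8.08 to 13.2 TPM in SAR and 12.3 to 17.0 TPM in ROH. Of 3 mast cell and eosinophil markers 1 was lower, gata2a (3 with the replicate block), with sums of 7.75 to 325 TPM in SAR and 370 to 909 TPM in ROH. The part of these cells in the differences of the 40 genes was not tested.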

How the data were processed

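Hearts of sqet33mi59BEt embryos were dissociated and sorted by FACS into GFP+ and GFP- cells, cDNA was made with SMART-Seq v4 and paired reads were sequenced. The authors mapped the reads to GRCz11 with the Ensembl gene annotation and quantified genes with Salmon (version not given in the sources used here), and the submitters' notes also name bcl2fastq 2.16.10 and cutadapt. The authors deposited a TPM value, an estimated count and an effective length for each gene and library. Symbols came from the paper's gene tables and a gene name table, with 38 genes matched by symbol and 2 (grn1, grn2) by RefSeq synonym. The RefSeq table (GRCz12tu) was used only for synonyms and for which genes are neighbours. The members and lists were chosen with earlier results of these data known, and every member is named, with per-library values for those past the threshold and for the leading markers.

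Estimated counts were rounded, filtered with filterByExpr (minimum count 10, minimum total 15) and TMM-normalized, and the sorted fraction was tested alone in edgeR's quasi-likelihood test (edgeR 4.0.16, R 4.3.3). The threshold was an adjusted p of 0.05 (Benjamini-Hochberg, 21969 genes) and a log2 fold change of 1.5. The standard error (SE) was back-calculated as the size of the log2 fold change over the square root of the test's F statistic. Tests were first checked on simulated data. The exact permutation test of 3 against 3 libraries cannot go below p = 0.1, so p-values are those of the fit across all genes. Per the methods, pools of hearts were dissociated and sorted into both fractions, and the labels number both fractions 1 to 3, so same-numbered libraries were read as pairs. Their deviations from the group means correlated at 0.0985, 0.273 and 0.124, and each library correlated best with its own number. The replicate block is given where it changed a call. Alternatives were DESeq2 1.42.0, limma 3.58.1 on log2(TPM + 1) and log2(TPM + 0.1), other size factors, no filter, gene length offsets, counts thinned to the smallest library by binomial sampling (seed 1), globin genes left out, a replicate block and each library left out in turn. Figures used matplotlib 3.10.9. The values of 1 gene of the related lists are not reported here.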

Additional observations from a re-analysis of the deposited data

How the results depend on the processing

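Of the 14 genes past the threshold, 8 passed in all 6 fits that left out 1 library (lyz, mpx, npsn, lect2l, lcp1, coro1a, laptm5 and plek). Of these 8, plek did not pass with gene length offsets or with limma in any setting. With counts thinned to the smallest library only 4 of the 11 pan-leukocyte genes were tested, and plek and laptm5 were not among the 2 called. A gene that the filter on low counts removed there could not pass. In the fits without 1 library, 8 to 14 of the 40 genes were lower and 0 to 1 higher in SAR. By role 0 to 4 macrophage genes were lower and 0 to 1 higher, and 4 to 6 pan-leukocyte genes were lower. The count over all genes was 442 to 1035 lower, beside 813, and 369 to 647 higher, beside 624. Without a fold change threshold 1072 genes were higher and 1 oxidase gene was lower. DESeq2 called 5 macrophage genes lower, and its 18 calls among the 40 genes held all 14 and added cxcr3.2, fcer1gl, mfap4 and mpeg1.1. Over all 30258 genes that DESeq2 tested, 1043 were lower and 848 higher. Thinned to the smallest library, 13 of the 40 genes were tested, 7 of them lower (4 neutrophil, 1 macrophage and 2 pan-leukocyte genes) and 0 higher. Over all 11423 genes tested in this setting, 575 were lower and 398 higher. Of these 7 genes, 6 were among the 14. The macrophage gene was grn1, which did not pass with all counts. Only 2 macrophage genes passed the filter after thinning. ctss2.1, lgals3bpb and irf8 were not tested in this setting, so that their calls could be neither kept nor lost by a test. limma on log2(TPM + 1) called 0 genes of the 40 higher. On log2(TPM + 0.1), and on log2(TPM + 1) without the filter, it called 8 lower and 0 higher, of which 1 was a macrophage gene and 3 were pan-leukocyte genes. Both of these settings lost irf8, lgals3bpb, plek, ptprc, spi1b and wasb. Without the filter limma called 533 genes lower and 375 higher over all genes, and on log2(TPM + 0.1) it called 564 lower and 453 higher. The sign of a log2 fold change turned in 9 fits, all of genes with no call in either fit. Over the fits without 1 library the log2 fold change was -0.33 to 0.20 for nccrp1 (0.20 without ROH replicate 3), -0.37 to 0.72 for ncf4 (-0.37 without SAR replicate 2), -0.25 to 0.79 for csf1ra (-0.25 without SAR replicate 3), -0.44 to 0.25 for ctss2.2 (0.25 without ROH replicate 3) and -0.74 to 0.70 for hck (-0.74 without SAR replicate 2). With limma it was 0.66 for ctss2.2 and -0.0026 for hck on log2(TPM + 0.1), and 0.14 for ctss2.2 on log2(TPM + 1) with and without the filter. The cause was not tested.

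With the replicate block, 5 macrophage genes were lower, beside 2, and 18 of the 40 genes passed, which held all 14 and added mfap4, mpeg1.1, grn1 and fcer1gl. It changed no other call among the 40 genes. Over all 21969 tested genes, 1040 were lower with the block, beside 813, and 719 were higher, beside 624. The 5 untested genes had at most 15 counts in any library, and whether depth or low abundance set this was not tested.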
